A study of Rattus norvegicus with 5 samples.

Results

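The granins and their companions in the secretory granule were examined as 9 genes: Chga, Chgb, Scg2, Scg3, Vgf, Resp18, Ptprn, Ptprn2 and Ica1. They were chosen by name, and every probe set annotated to one of these symbols was taken. Each gene had 1 probe set, so there were 9 of 10411 named genes on the array, and all 9 probe sets were bright enough to test.

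RNA came from the rat insulinoma line INS-1, whose cells make insulin, and from 4 clones derived from it. Every clone carries an FRT site, where Flp recombinase can insert a gene, and the tetracycline repressor, which keeps an inserted gene silent without tetracycline; the parental line carries neither by its label. The labels name no inserted gene, no treatment and no time. The groups were parental INS-1 (1 array), clones 1-1.2 and 1-1.16 (set 1-1) and clones 5-3.14 and 5-3.19 (set 5-3), with 1 array for each line or clone, 5 in all. Each clone is 1 clone of one cell line, and what the first part of a clone name stands for is not stated. Signals are on an arbitrary linear scale and are compared only for the same gene across arrays.

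The secretory granule is the store from which endocrine cells and neurons release peptides on demand. Its lumen is packed with granins, acidic proteins that condense in the trans-Golgi network, help granules to form and are themselves cut into peptides. The granule membrane carries the receptor-like proteins Ptprn and Ptprn2, and cytosolic proteins such as Ica1 act while granules are made. In beta cells these proteins share the granule with insulin, and Ptprn, Ptprn2 and Ica1 are known as autoantigens of autoimmune diabetes.

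The arrays had been scaled to a common level, with a trimmed mean of 1000.24 to 1000.28 and a median signal of 342 to 372. Beta cell markers were bright: 6 of 6 measured markers passed the brightness limit, with a summed signal of 108050 in the parental line, 115120 and 69170 in clones 1-1.2 and 1-1.16 and 78056 and 75526 in clones 5-3.14 and 5-3.19. Of the other islet hormones only Gcg passed. Their summed signal, nearly all Gcg, was 7022 in the parental line, 2143 in clone 1-1.2, 17868 in clone 1-1.16, 20654 in clone 5-3.14 and 24562 in clone 5-3.19, so clone 1-1.16 was nearer to set 5-3 than to its sister clone, and the part of this in the members' differences was not tested. Among markers of other cells, 0 of 7 acinar and ductal and 0 of 6 fibroblast markers did. Acinar and ductal markers summed to 460 on the parental array and to between 373 and 671 on the clones, and fibroblast markers to 672 and between 515 and 583. Poly(A) control RNAs, added before labelling, were brighter on the parental array than on the clones by 3.57-fold for lys and by 1.27- to 1.58-fold for the other 4, whereas the hybridisation controls were at 0.797 of the clones' signal. The beta-actin 3′ to 5′ ratio, a sign of RNA integrity, was 1.60 on that array and between 1.49 and 1.73 on the others.

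From the lowest to the highest array 3 of the 9 genes varied by more than 2-fold and 6 by less. Scg2, Vgf and Ica1 spanned 4.57-, 3.33- and 2.91-fold, and Chga, Chgb, Scg3, Resp18, Ptprn and Ptprn2 spanned 1.25- to 1.72-fold. On the log2 scale 97.0%, 93.8% and 91.3% of all tested probe sets had a smaller span than Scg2, Vgf and Ica1. For the other 6 genes this share was between 8.82% and 58.6%. The median span was 0.61 on the log2 scale for the 9 genes and 0.70 for all 9520 tested probe sets, which were not matched for brightness. Scg2 and, by less, Ptprn2 were lower in all 4 clones than in the parental line, Vgf was higher in all 4, and Ica1 was higher in set 1-1 and lower in set 5-3. By limma, adjusted over all tested probe sets with the Benjamini-Hochberg method, none of the 27 member differences reached the threshold of 0.05.

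**Figure D1:**
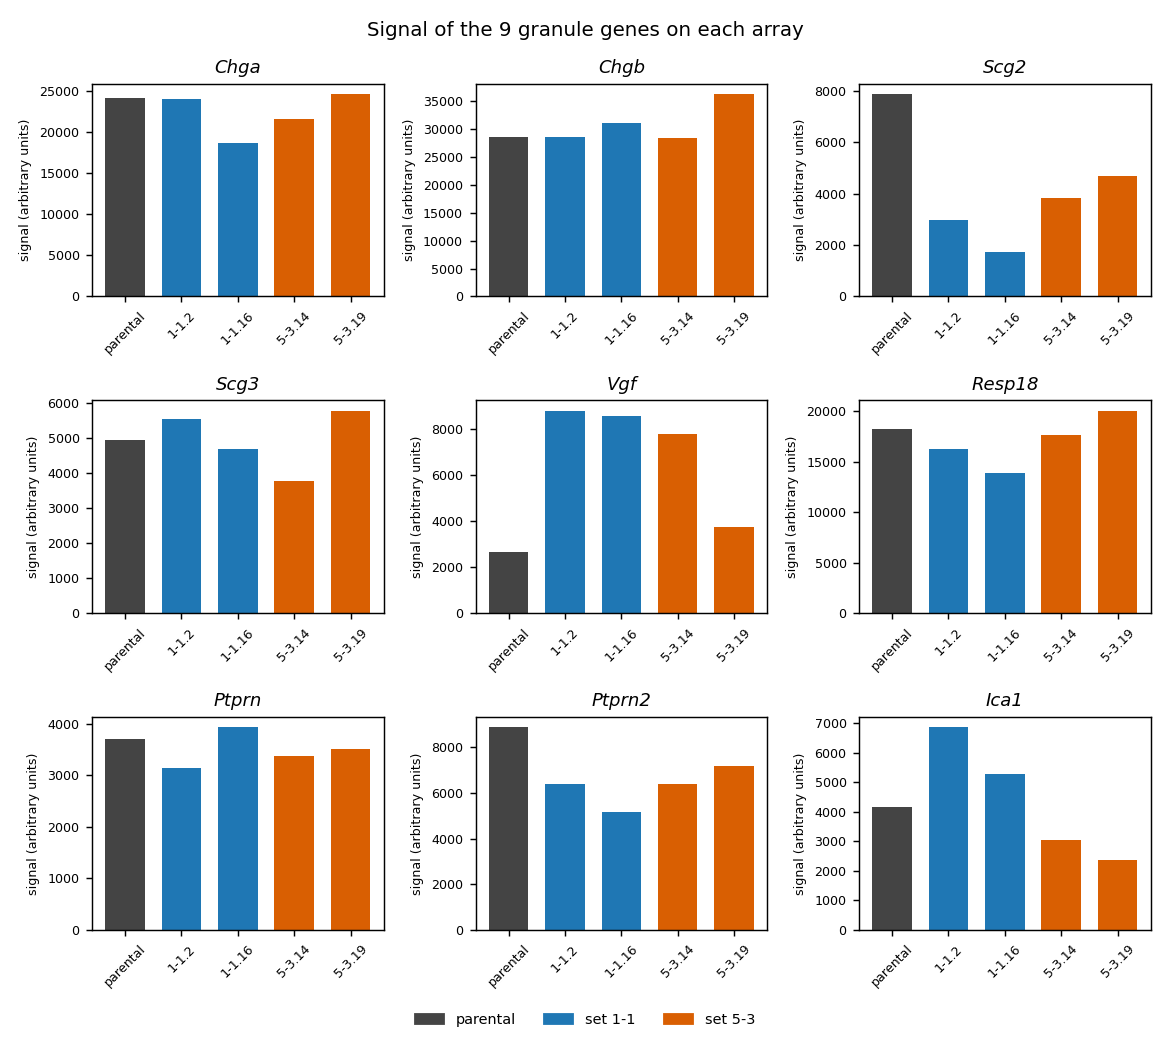
Signal of each gene (vertical axis, arbitrary linear units from 0) on the 5 arrays, with 1 bar for each array, coloured by group and without error bars because each line or clone has 1 array. Scg2 is highest (7892) and Vgf lowest (2646) in the parental line, and the bars of Chga, Chgb and Ptprn are nearly level.

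Scg2, secretogranin II, is the granin that gives rise to the neuropeptide secretoneurin. Its signal was 7892 in the parental line, 2984 in clone 1-1.2, 1728 in clone 1-1.16, 3843 in clone 5-3.14 and 4689 in clone 5-3.19. The parental array was highest, both 1-1 clones lay below both 5-3 clones, and the sets did not overlap. Relative to the parental signal the clones were at 0.378, 0.219, 0.487 and 0.594, in the same order. Set 1-1 had a mean of 2356 ± 888 and set 5-3 of 4266 ± 598 (SD, n = 2 each).

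The fitted log2 difference of Scg2 was −1.79 for set 1-1 minus parental (SE 0.36, 95% interval −2.65 to −0.93, limma adjusted p = 0.304) and −0.89 for set 5-3 minus parental (SE 0.36, interval −1.75 to −0.03, adjusted p = 0.616). Both share the parental array and are not independent. For set 5-3 minus set 1-1 it was 0.90 (SE 0.29, interval 0.20 to 1.60, limma adjusted p = 0.223). Without clone 1-1.16 that difference was 0.51 and without clone 1-1.2 it was 1.29 (limma adjusted p = 0.805 and 0.153). All 3 had an unadjusted p under 0.05 by limma (0.00182, 0.0438 and 0.0195), and none passed after adjustment. In bulk RNA, fewer cells with a transcript and less of it per cell cannot be told apart. The parental array also had the brighter poly(A) controls (lys 3.57-fold), and their part in this difference was not tested.

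Vgf encodes a granin-like precursor, first known as a gene induced by nerve growth factor, that is cut into several bioactive peptides. Its signal was 2646 in the parental line, 8809 and 8560 in clones 1-1.2 and 1-1.16, 7805 in clone 5-3.14 and 3735 in clone 5-3.19. Both 1-1 clones and clone 5-3.14 were close to each other at the top, and the parental line and clone 5-3.19 were low. The clones stood at 3.33, 3.23, 2.95 and 1.41 times the parental signal. This is the opposite side of the parental array from Scg2, and of the 36 pairs among the 9 genes Scg2 and Vgf had the most different profiles over the 5 arrays, with a root mean square difference of 1.38 on the log2 scale.

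Set 1-1 minus parental was 1.71 for Vgf (log2, SE 0.41, 95% interval 0.72 to 2.69, limma adjusted p = 0.426). Set 5-3 minus parental was 1.02 (SE 0.41, interval 0.04 to 2.01, adjusted p = 0.616 by limma), and set 5-3 minus set 1-1 was −0.68 (SE 0.34, interval −1.49 to 0.12, adjusted p = 0.424). Vgf was the only one of the 9 genes for which sister clones were at least 2-fold apart: clone 5-3.14 was 2.09-fold above clone 5-3.19. At least 2-fold apart were 6.59% of all tested probe sets between these 5-3 clones and 2.67% between the 1-1 clones. Leaving out either 5-3 clone changed calls for Vgf. Without clone 5-3.19 the same difference of 1.71 between set 1-1 and the parental line passed (limma adjusted p = 0.0242), as it did without clone 5-3.14 (adjusted p = 0.0271), and set 5-3 minus parental became 1.55 without clone 5-3.19 (adjusted p = 0.0348) and 0.49 without clone 5-3.14 (adjusted p = 0.689). The difference between the sets was −1.21 without clone 5-3.14 (limma adjusted p = 0.0403) and −0.15 without clone 5-3.19 (adjusted p = 0.796). In such fits the only sister clones left are those of the other set, because the parental line also has 1 array. The spread then comes from that pair and from what limma pools over all probe sets. For Vgf without a 5-3 clone the pair was 8809 and 8560, so these calls rest on 1 tight pair.

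The promoters of Scg2 and Vgf are printed because among the 8 members found in the promoter table, which did not include Chga, only these hold the full cyclic AMP response element, the binding sequence of CREB-family transcription factors, although their signals lay on opposite sides of the parental array. Both are from RefSeq in the GRCr8 build, 250 bases that end at the base before the annotated gene start, on the minus strand: chr9:88256867-88257116 for Scg2 and chr12:25277021-25277270 for Vgf. Capitals mark TGACGTCA.
Scg2: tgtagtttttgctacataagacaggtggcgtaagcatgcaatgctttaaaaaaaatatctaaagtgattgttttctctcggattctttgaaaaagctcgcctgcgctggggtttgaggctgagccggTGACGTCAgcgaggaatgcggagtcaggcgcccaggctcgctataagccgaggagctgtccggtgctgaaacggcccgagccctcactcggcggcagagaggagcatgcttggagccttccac
Vgf: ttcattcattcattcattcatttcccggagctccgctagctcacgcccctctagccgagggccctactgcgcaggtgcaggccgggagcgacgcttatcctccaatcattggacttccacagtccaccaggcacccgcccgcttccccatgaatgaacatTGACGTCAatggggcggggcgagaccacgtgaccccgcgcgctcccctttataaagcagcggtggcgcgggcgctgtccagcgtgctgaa

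The element lies 123 to 116 bases upstream of the annotated start in Scg2 and 90 to 83 bases upstream in Vgf. TGACGTCA, a palindrome that reads the same on both strands, was found in 2 of the 8 members matched by symbol, against 1.59% of all 33469 promoters in the same window. The shorter TGACG, which is part of the full element and was searched on both strands, occurred in 5 of 8 members (Scg2, Scg3, Vgf, Ptprn and Ica1), against 18.2% of all promoters. CACGTG, also a palindrome, was in Vgf and Ica1 (5.59% of all), and TATAAA on either strand in Vgf and Ica1 (12.9% of all). These matches describe letters in a window and were not tested for binding. The CREB gene Creb1 read 448 in the parental line, 243 and 185 in set 1-1 and 185 and 378 in set 5-3. The signal of 185 lies below the brightness limit of 194. Its relative Crem read 1302, 1400, 2598, 1406 and 2740 in the same order, so sister clones were apart in both sets. Neither gene passed in any of the 3 comparisons (limma adjusted p from 0.617 to 0.976). Any part of Creb1 or Crem in the members' differences was not tested.

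Ica1, islet cell autoantigen 1, is a cytosolic protein with a membrane-binding BAR domain that works with Pick1 on immature granules. It read 4180 in the parental line, 6864 in clone 1-1.2, 5269 in clone 1-1.16, 3043 in clone 5-3.14 and 2357 in clone 5-3.19. Both 1-1 clones were above the parental array and both 5-3 clones below it, so the sets did not overlap. The set means were 6066 ± 1128 and 2700 ± 485 (SD, n = 2 each). Set 1-1 minus set 5-3 was 1.16 (log2, SE 0.23, 95% interval 0.60 to 1.72), which is a 2.24-fold higher level in set 1-1, with an unadjusted p of 0.00186 and an adjusted p of 0.110 by limma.

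Ica1 had the lowest p of the 9 genes between the sets and ranked 161st of 9520 probe sets. Without clone 5-3.14 set 5-3 minus set 1-1 was −1.34, and over all alternatives the difference ranged from −1.35 to −0.97. Against the parental line it was 0.52 for set 1-1 (SE 0.29, limma adjusted p = 0.653) and −0.64 for set 5-3 (SE 0.29, adjusted p = 0.676), with ranges of 0.33 to 0.71 and −0.82 to −0.46 when 1 clone was left out. Sets on opposite sides of the parental array were found for 12.1% of all tested probe sets and for 1 of the 9 genes. Its promoter is also shown, since Ica1 is the gene of the 9 that differed most between the sets. The window is chr4:37770906-37771155 on the minus strand (RefSeq, GRCr8), with the TGACG matches of either strand in capitals.
Ica1: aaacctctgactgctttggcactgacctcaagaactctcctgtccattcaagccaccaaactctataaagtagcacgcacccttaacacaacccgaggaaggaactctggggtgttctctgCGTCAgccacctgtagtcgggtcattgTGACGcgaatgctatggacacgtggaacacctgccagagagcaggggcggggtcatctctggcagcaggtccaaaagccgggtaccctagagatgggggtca

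Pick1, the partner of Ica1, read 1217 in the parental line, 744 and 1028 in set 1-1 and 997 and 1218 in set 5-3. Its set 5-3 minus set 1-1 difference was 0.33 (limma adjusted p = 0.624), with the opposite sign to Ica1.

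The chromogranins were nearly level. Chga, chromogranin A, which binds calcium in the granule and is the precursor of vasostatin and pancreastatin, read 24082 in the parental line, 24011 in clone 1-1.2, 18589 in clone 1-1.16, 21575 in clone 5-3.14 and 24607 in clone 5-3.19. Clone 1-1.16 was lowest and the groups overlapped. Chgb, chromogranin B, read 28475, 28575, 31121, 28465 and 36306 in the same order. Clone 5-3.19 was highest and the other 4 arrays lay within 2657 units of each other. The brightest probe set on every array was Ins1, at 34381 to 42217, so Chgb was near the top of the range, where saturation could mask a difference.

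Between the sets Chga differed by 0.12 (log2, 95% interval −0.30 to 0.55, limma adjusted p = 0.804) and Chgb by 0.11 (interval −0.28 to 0.50, adjusted p = 0.818). Against the parental line the 4 differences of these genes lay between −0.19 and 0.17, with adjusted p from 0.843 to 0.985 by limma. These intervals leave room for changes of up to about 0.70 on the log2 scale, so equal levels were not shown.

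Scg3, secretogranin III, anchors chromogranin A to the cholesterol-rich granule membrane. It read 4942 in the parental line, 5534 and 4688 in clones 1-1.2 and 1-1.16, and 3777 and 5788 in clones 5-3.14 and 5-3.19. The lowest and the highest array were sister clones of set 5-3, 1.53-fold apart. The differences were −0.12 between the sets, 0.04 for set 1-1 minus parental and −0.08 for set 5-3 minus parental (limma adjusted p = 0.875, 0.979 and 0.986).

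Resp18 encodes a small luminal granule protein that shares a sequence domain with Ptprn and Ptprn2. It read 18261 in the parental line, 16296 and 13892 in set 1-1 and 17662 and 20094 in set 5-3. The sets did not overlap, with set 5-3 higher by 0.32 (log2, SE 0.16, 95% interval −0.07 to 0.72, limma adjusted p = 0.439). Resp18 and Chga had the most alike profiles of all 36 pairs, with a root mean square difference of 0.10 on the log2 scale over 5 arrays. In the GRCr8 gene table Resp18 and Ptprn are neighbours on chromosome 9, with 0 protein-coding genes between them, and their profiles differed by 0.24.

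Ptprn, also called IA-2, spans the granule membrane and affects granule number and stability. It read 3708 in the parental line, 3144 and 3930 in set 1-1 and 3374 and 3512 in set 5-3, the narrowest span of the 9 genes at 1.25-fold. Its differences were −0.03, −0.08 and −0.11 (set 5-3 minus set 1-1, set 1-1 minus parental and set 5-3 minus parental, limma adjusted p = 0.963, 0.957 and 0.974). Its paralogue Ptprn2, or phogrin, read 8877 in the parental line, 6390 and 5153 in set 1-1 and 6382 and 7170 in set 5-3. Like Scg2 it was highest on the parental array, and the clones were at 0.720, 0.580, 0.719 and 0.808 of that signal. Set 1-1 minus parental was −0.63 (log2, SE 0.24, unadjusted p = 0.0363, adjusted p = 0.566 by limma) and set 5-3 minus parental −0.39 (SE 0.24, adjusted p = 0.791). The sets overlapped at 6382 and 6390.

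**Figure D2:**
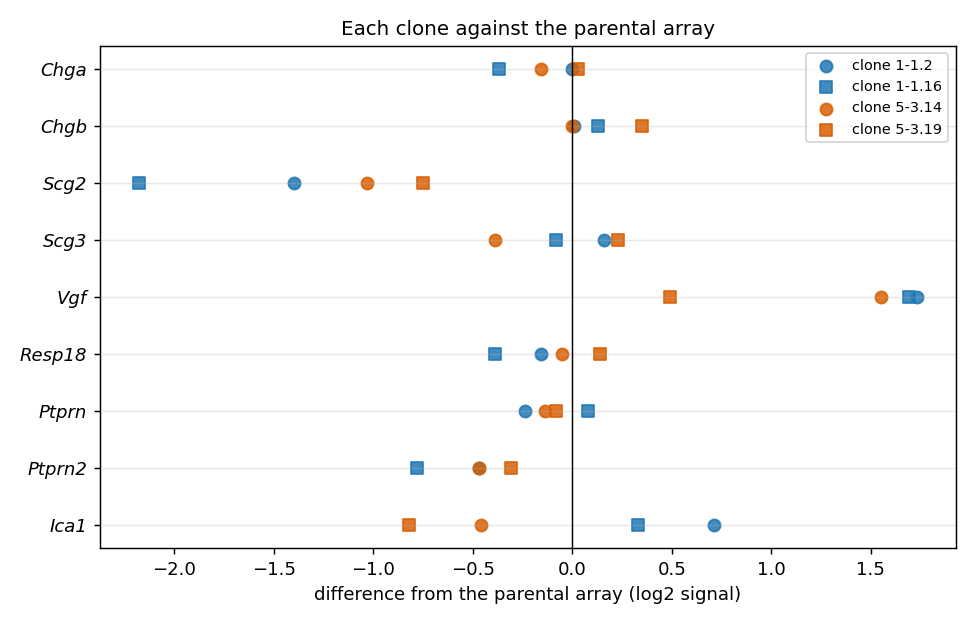
Difference of each clone from the parental array (horizontal axis, log2 signal; the vertical line is the parental level) for the 9 genes, with 1 point for each clone. All 4 points lie left of the line for Scg2 (−2.18 to −0.75) and Ptprn2 (−0.78 to −0.31) and right of it for Vgf (0.49 to 1.73), and the sets part to either side for Ica1.

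Against the parental line the 9 genes were uneven: Scg2 and Vgf were far from it and most of the others near. The median absolute difference was 0.28 for set 1-1 and 0.17 for set 5-3 (log2), against 0.27 and 0.24 for all tested probe sets. All 4 clones lay on one side of the parental array for 3 of 9 genes, 1 higher (Vgf) and 2 lower (Scg2 and Ptprn2), where 38.1% of all tested probe sets did so, 18.4% higher and 19.7% lower. By limma 0 of 9 passed for set 1-1 minus parental and 0 of 9 for set 5-3 minus parental, and 3 (Scg2, Vgf and Ptprn2) and 2 (Scg2 and Vgf) of 9 had an unadjusted p under 0.05. Among all 9520 probe sets, 0.0105% passed in each of these comparisons, and 8.47% and 7.80% had an unadjusted p under 0.05. The median difference of the 9 genes was −0.08 in both, against 0.02 and −0.03 for all tested probe sets.

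Clone by clone, 2 of the 9 genes (Scg2 and Vgf) were at least 2-fold from the parental array in each of clones 1-1.2, 1-1.16 and 5-3.14, and 0 in clone 5-3.19. The shares of all tested probe sets were 5.04%, 7.63%, 8.92% and 5.17%. Clone 5-3.14 was lower than the parental array for 8 of 9 genes, against 51.7% of all probe sets, and clone 5-3.19 for 4 of 9, against 51.0%. The 8 included Chgb (28465 against 28475) and Resp18 (log2 −0.05), and the median of the 9 genes in clone 5-3.14 was −0.16. In set 1-1, clone 1-1.16 was lower than clone 1-1.2 for 7 of 9 genes (44.5% of all), with Chgb and Ptprn the exceptions. In set 5-3, clone 5-3.19 was higher than clone 5-3.14 for 7 of 9 (47.9% of all), with Vgf and Ica1 the exceptions. These directions have no replicate check.

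Between the clone sets the clones did not overlap for 4 of 9 genes, against 46.6% of all tested probe sets. Scg2 and Resp18 were higher in set 5-3 (22.1% of all) and Vgf and Ica1 were lower (24.5% of all). By limma 0 of 9 passed, against 0.420% of all, and 2 of 9 had an unadjusted p under 0.05, against 14.8%. The median difference was 0.11 for the 9 genes and −0.04 for all. A fit to the 4 clones alone, without the parental array, called 0 of 9. The parental array does not enter these differences or the spread between sister clones, so this fit is no separate check. Leaving out clone 5-3.14 gave 2 calls, Vgf and Ica1.

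**Figure D3:**
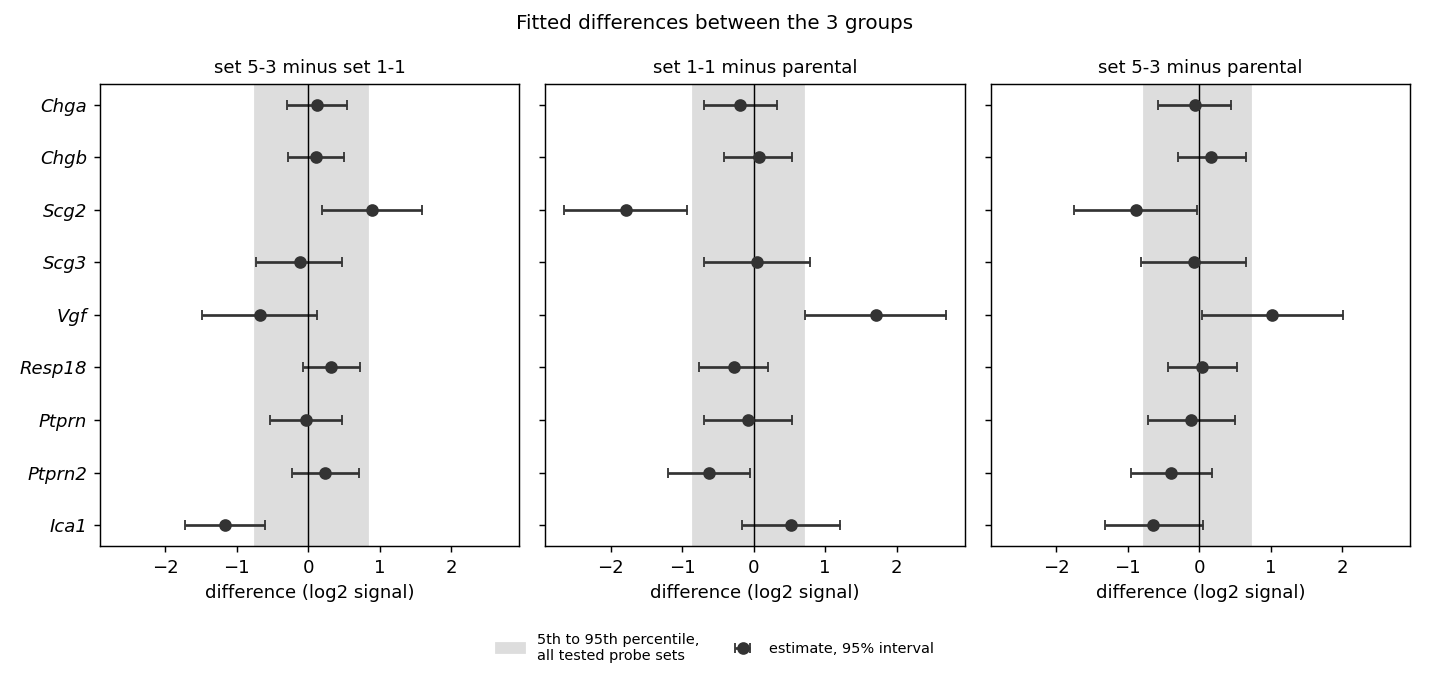
Fitted log2 differences between the 3 groups (points) with 95% intervals (bars, from limma), and in grey the range from the 5th to the 95th percentile of all tested probe sets. Only Scg2, Vgf and Ica1 have points outside a grey band: Scg2 in all 3 panels, Vgf in both panels against the parental line and Ica1 between the sets.

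The other genes of the granule pathway were counted from lists by role. Of the enzymes and chaperones that process prohormones, 8 were tested and 0 passed in any of the 3 comparisons. Pcsk2, the prohormone convertase that acts late in the granule, read 9130 in the parental line, 3331 and 1974 in set 1-1 and 7512 and 8705 in set 5-3, a difference between the sets of 1.65 (log2, limma adjusted p = 0.0692). Pcsk1n, which encodes the convertase inhibitor proSAAS, read 3986, 1836, 1224, 4737 and 5627 in the same order, with a difference of 1.77 (adjusted p = 0.0519 by limma). Neither passed with all arrays. Leaving 1 clone out gave differences from 1.27 to 2.02 for Pcsk2 and from 1.48 to 2.06 for Pcsk1n, in each case smallest without clone 1-1.16. In both genes, as in Scg2, the 1-1 clones were lowest with clone 1-1.16 below clone 1-1.2. Scg5, the chaperone 7B2 of Pcsk2, differed by 0.13 between the sets and Cpe, the carboxypeptidase that trims cut hormones, by 0.10 (limma adjusted p = 0.898 and 0.819). Qpct, which forms the pyroglutamyl end of some peptides, differed by −0.95 (−1.36 without clone 5-3.19, limma adjusted p = 0.0401, and −0.54 without clone 5-3.14) and the carboxypeptidase gene Cpd by −0.34.

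Of the hormones and peptides carried by granules, 8 were tested, 7 of them with lower signal in set 5-3. The median was −0.93, against −0.04 for all tested probe sets. The 7 included Ins1 at −0.02 and Iapp at −0.16, and Cck was higher, at 0.89. Npy read 4179 in clone 1-1.2 and 1621 in clone 1-1.16, against 1664 and 1426 in set 5-3. The gastrin gene Gast was the 1 called member between the sets, where 0.420% of all tested probe sets were called. It was lower in set 5-3 than in set 1-1 (log2 difference −6.33, limma adjusted p = 0.000499). Gast read 12.9 and 18.0 in set 5-3 and 2540 and 3474 in set 1-1. Both 5-3 signals lie below the brightness limit of 194, so this gene was tested through the arrays where it is bright. The 5-3 signals also lie below the offset of 21.8 added before the logarithm, which therefore sets the size of that difference. Gast was also the 1 called member for set 5-3 minus parental (−5.22, limma adjusted p = 0.0138). Ins2, Cartpt and Nucb2 differed by −1.62, −1.30 and −1.10 between the sets (adjusted p = 0.349, 0.101 and 0.201 by limma). The Ins2 signal split the sister clones of set 1-1, with 30224 in clone 1-1.2 and 5381 in clone 1-1.16, against 28816 in the parental line and 3953 and 4303 in set 5-3. Without clone 1-1.2 its difference was −0.38 and without clone 1-1.16 it was −2.87 (limma adjusted p = 0.749 and 0.000867). Nucb2 passed without clone 5-3.19 (−1.58, limma adjusted p = 0.0206) and was at −0.63 without clone 5-3.14.

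Among granule membrane proteins 6 were tested and 1 passed between the sets, Slc18a1, the vesicular monoamine transporter of endocrine cells, with 71.0 and 119 in set 1-1, 1675 and 2409 in set 5-3 and 1189 in the parental line (log2 difference 4.15, limma adjusted p = 0.00839). Both 1-1 signals lie below the brightness limit of 194, so this gene was tested through the arrays where it is bright and the size of its difference is uncertain. By their brightest probe sets the other 5 lay between −0.15 for the synaptic vesicle protein gene Sv2a and 0.14 for the electron carrier gene Cyb561. Dnajc5, at 0.04 by its brightest probe set, was at −0.30 by its other tested one. Of 13 tested factors for granule assembly, transport and docking, 0 passed in any comparison, with a median of −0.02 between the sets. Sytl4, granuphilin, which docks granules through Rab27a, read 3234 in the parental line, 1708 and 978 in set 1-1 and 116 and 748 in set 5-3 (difference between the sets −2.01, limma adjusted p = 0.272). That difference was −3.25 without clone 5-3.19 and −0.77 without clone 5-3.14. The larger value rests on clone 5-3.14 alone, whose signal of 116 lies below the brightness limit, so its size is uncertain. Rab27a, Syt7 and the motor protein gene Myo5a differed by 0.59, 0.75 and −0.61.

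Of the regulators of granule genes, 7 were tested and 0 passed. By their brightest probe sets 7 were higher in set 5-3 than in set 1-1 (median 0.31, against −0.04 for all tested probe sets). The other tested probe set of Creb1 was at −0.03. Crem was at 0.04 by its brightest probe set and at 0.53 and 0.35 by its others. The endocrine transcription factor genes Pax6, Isl1 and Neurod1 differed by 0.74, 0.71 and 0.46 (limma adjusted p = 0.264, 0.393 and 0.653), and the corepressor gene Rcor1 by 0.31. Ptbp1, whose RNA-binding protein stabilises granule messenger RNAs, differed by 0.11. Without clone 1-1.16 Pax6, Isl1, Neurod1, Rcor1 and Ptbp1 were at 0.36, 0.32, −0.19, 0.42 and 0.24. Without clone 1-1.2 they were at 1.13, 1.10, 1.12, 0.20 and −0.02, so the shared direction depended on single clones. Neurod1 read 6927 in clone 1-1.2 and 2790 in clone 1-1.16, against 6392 and 5773 in set 5-3. Rest, the repressor that silences granin genes outside neurons and endocrine cells, was below the brightness limit and untested: it read 22.4 in the parental line, 80.9 and 127 in set 1-1 and 26.2 and 35.4 in set 5-3. Its other probe set read 18.5, 34.6, 16.7, 13.8 and 27.8 in the same order and did not separate the sets.

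**Figure D4:**
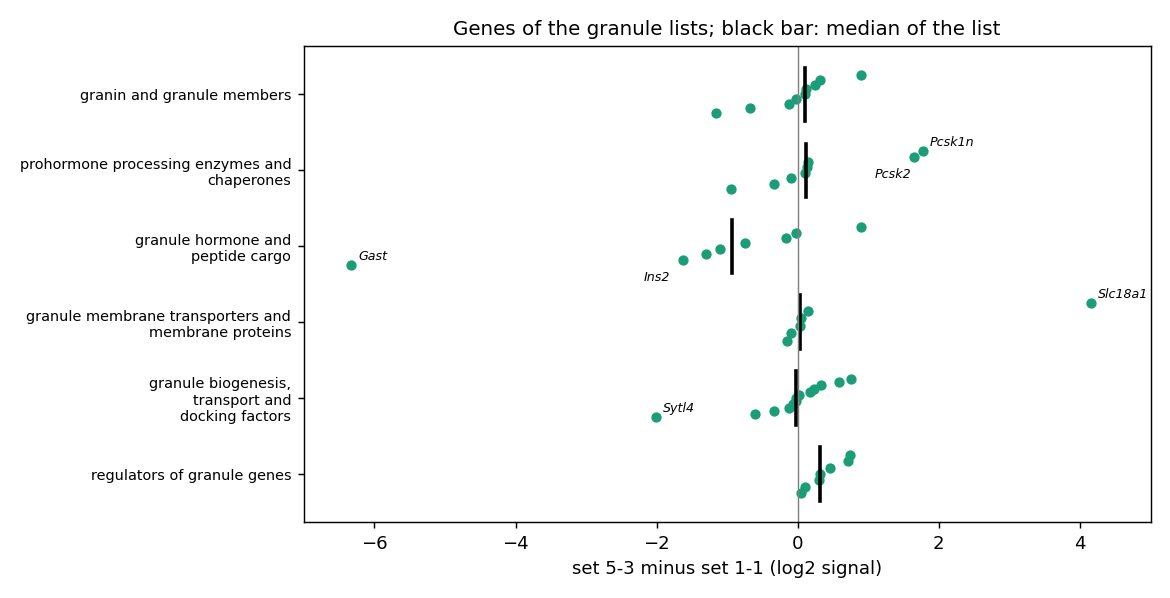
Difference between set 5-3 and set 1-1 (horizontal axis, log2 signal) for the tested genes of 6 granule lists, 1 point for each gene, with the list's median as a black bar. Most points lie within 1 unit of zero, and genes at least 1.5 units away are named, from Gast at −6.33 to Slc18a1 at 4.15.

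The genes whose profile over the 5 arrays was most like that of Scg2 were Sox4, Nap1l5, Tgm2, Vsnl1 and Acat2, with root mean square differences of 0.14, 0.16, 0.18, 0.18 and 0.19 on the log2 scale. Vsnl1, a neuronal calcium sensor, read 389 in the parental line, 177 and 77.7 in set 1-1 and 170 and 294 in set 5-3. Acat2, an enzyme of the sterol pathway, read 4017, 1702, 962, 2744 and 2314 in the same order. The other probe sets of Sox4 and Tgm2 were less alike, at 0.42 and 0.32. The mean profile of the 9 genes was nearly flat, from −0.11 in clone 1-1.16 to 0.11 in clone 1-1.2 around its centre, and the nearest genes were Cd99l2, Pias4, Cox8a, Rundc3a and Ppp3cb, at 0.020 to 0.027, with the other probe sets of Pias4 and Ppp3cb at 0.14 and 0.11. These genes were picked as the closest among 6944 named genes tested, over only 5 arrays. How many others come near was not counted, and these are descriptions without a test.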

How the data were processed

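RNA from the parental INS-1 line and 4 clones was hybridised to single-colour rat arrays, 1 array each. The deposited table holds a linear signal intensity per probe set; the authors' software is not given in the sources used here. Each array's 2% trimmed mean lay at 1000.24 to 1000.28, so intensities were used as deposited. Without detection calls, dim signal cannot be separated from background.

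Of 15923 probe sets, 57 controls were left out. A platform table gave 1 symbol for 12783, several for 312 and none for 2771; 12748 matched GRCr8 by gene number. Values were log2(signal + 21.8), the offset being the 10th percentile of positive signals, so folds of dim genes are understated. The 9520 probe sets with a mean at or above the 40th percentile (signal about 194) were tested with limma 3.58.1 in R 4.3.3 (3 groups, intensity trend, 2 residual degrees of freedom, Benjamini-Hochberg over all 9520, threshold 0.05), which assumes that the single parental array varies like the clones. Fits were tested on simulated data. The p-values measure only the spread between sister clones, which may share an origin.

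All 9 members are named. From each list, up to 4 genes with the largest difference between the sets are named, plus Rest, Ptbp1, Neurod1, Pax6, Pcsk2, Cpe and Scg5. Pick1, Creb1, Crem, Ins1, Iapp, Npy, Cck and Dnajc5 were chosen outside this rule, after their values were seen. Where a gene had several probe sets, the brightest was used. Members and lists were chosen with earlier results of these data known. Alternatives were the offset, scaling, filter, variance model and leaving out each array.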

Additional observations from a re-analysis of the deposited data

Results flagged for a closer look

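The clone sets stood on opposite sides of the parental line for Ica1, with both 1-1 clones higher (6864 and 5269 against 4180) and both 5-3 clones lower (3043 and 2357). Set 1-1 minus set 5-3, 1.16 on the log2 scale, did not pass limma's test (adjusted p = 0.110), and 12.1% of all tested probe sets had their sets on opposite sides in this way.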

How the results depend on the processing

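The number of arrays limits every value. Of 27 member differences (9 genes, 3 comparisons), 16 kept their sign under every alternative, among them all those of Scg2, Vgf, Ica1 and Ptprn2. The others were within 0.17 of zero and changed sign at least once; the cause was not tested. Set 5-3 minus set 1-1 turned to 0.01 for Ptprn under median centring, to −0.06 for Chga and 0.13 for Ptprn without clone 1-1.16, to 0.18 for Scg3 without clone 5-3.14 and to −0.07 for Chgb without clone 5-3.19. Set 1-1 minus parental turned to 0.00 (just below zero) and −0.05 for Chgb under quantile normalization and cyclic loess, to −0.01 for Scg3 under cyclic loess, and to −0.08 for Scg3 and 0.08 for Ptprn without clone 1-1.2. Set 5-3 minus parental turned to −0.14 and −0.05 for Resp18 under quantile normalization and cyclic loess, to 0.03 for Chga and 0.23 for Scg3 without clone 5-3.14, and to 0.00 for Chgb (just below zero) and −0.05 for Resp18 without clone 5-3.19. Over the fits that leave out an array these differences ranged, between the sets, from −0.06 to 0.31 for Chga, −0.07 to 0.28 for Chgb, −0.43 to 0.18 for Scg3 and −0.19 to 0.13 for Ptprn. For set 1-1 minus parental the range was −0.08 to 0.16 for Scg3 and −0.24 to 0.08 for Ptprn. For set 5-3 minus parental it was −0.16 to 0.03 for Chga, 0.00 to 0.35 for Chgb, −0.39 to 0.23 for Scg3 and −0.05 to 0.14 for Resp18.

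Called members numbered 0 in each comparison and under every alternative that kept all arrays. Leaving out an array gave 0 to 2 between the sets and 0 to 1 for each set against the parental line. Over the whole table, 40 probe sets were called between the sets, against 70 with median centring, 10 without the filter, 12 with the filter at the 60th percentile and 41 to 224 with an array left out. For set 1-1 minus parental the count was 1, against 0 with median centring, without the filter and without the variance trend, and 5 to 53 with an array left out. For set 5-3 minus parental it was 1, against 4 with the larger offset, 5 with median centring, quantile normalization or cyclic loess, 0 without the filter or with the stricter one, and 14 to 141 with an array left out. The members have no other probe set to try. No paired analysis was possible because the replicate numbers only name clones and the parental line has 1 array.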
